A study of Homo sapiens with 2 samples.

Results

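The genes described here are the chemokines, the interleukins and their receptors, taken as every gene whose symbol begins with CXCL, CCL, CXCR or CCR followed by a digit, or with IL followed by a digit. Of the 19061 genes named on the array, 139 met this rule, measured by 174 of 42402 probes and 435 of 58717 spots that are not controls. The genes were chosen by symbol and not by their values. The rule follows the symbol, so it takes in IL4I1, an amino acid oxidase, and CXCR2P1, a pseudogene, and leaves out relatives with other names such as PPBP and PF4. CCL3L1, CCL4L1, CCL4L2, IL11RA and IL15 fit the rule but had no probe matched to them.

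SBC-3 is an adherent small-cell lung cancer line that was established from a bone metastasis. The cells were transfected by Lipofectamine RNAiMAX with #1 siHOTAIR, an siRNA against the long noncoding RNA HOTAIR, or with siGFP, the control siRNA. RNA of each culture was put on 1 Agilent array with the dye Cy3, and the arrays shared 1 slide and 1 scan. The comparison therefore rests on 1 cell line, 1 siRNA against HOTAIR and 1 array per condition, and the time from transfection to extraction of the array RNA is not given in the sources used here.

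With single arrays no test between the conditions was possible, and an effect of the siRNA cannot be told apart from differences between the cultures or the arrays. The unit is the processed signal of the scanner software, a background-subtracted intensity, and each ratio is given on the log2 scale as #1 siHOTAIR over siGFP after both arrays were set to their 75th percentile. The SD beside a ratio comes from repeated spots on the same array and covers measurement error only. The software judges whether each spot is well above background, and a probe passed this background rule on an array where 50% or more of its spots did. The HOTAIR probe had 1 spot, with a signal of 108 after #1 siHOTAIR and 244 after siGFP transfection, a log2 ratio of -1.22 (SD 0.22). Among the neuroendocrine markers, ENO2 and NEUROD1 passed the background rule on both arrays and CHGA and NCAM1 on the #1 siHOTAIR array only, while INSM1, SYP and UCHL1 passed on neither. The summed signal of this list was 1010.3 and 1207. Of its 4 probes that passed on at least 1 array, 2 were at least 2-fold higher after #1 siHOTAIR by averaged signals. They were CHGA, at 72.2 against 10.2, and an NCAM1 probe, at 25.5 against 7.20. Over all such probes of the array 3.3% were higher and 4.1% lower. KRT8 and KRT18, keratins of epithelial cells, each passed on both arrays with a probe and on the siGFP array only with another. EPCAM passed on the siGFP array only and CDH1 on neither, and the summed signal was 3321 and 3244. Of the 5 epithelial probes that passed on at least 1 array, 2 were at least 2-fold lower by averaged signals. These were EPCAM, at 9.19 against 25.1, and a KRT18 probe, at 16.2 against 36.1. Of the leukocyte genes, CD14, CD68 and PTPRC were well above background and CD3E, CD2, MS4A1 and ITGAM were not, and the summed signal of the list was 423 and 363. The probes of PTPRC disagreed. A single-spot probe passed on both arrays, at 106 against 61.0, another passed on the siGFP array only, and the rest passed on neither. None of the 4 fibroblast genes was well above background, and of the 3 endothelial genes CDH5 was.

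Chemokines are small secreted proteins that direct cell migration through G protein-coupled receptors. Those of the CXC class that carry the Glu-Leu-Arg motif (ELR) act on CXCR1 and CXCR2 and attract neutrophils, and many carcinoma cells secrete them. Interleukins signal through cytokine receptors coupled to JAK kinases, or, in the IL-1 and IL-17 families, through adaptors that lead to NF-kappaB.

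The promoters of the ELR chemokines are shown because all of their probes lay on the same side of 0, and because these genes are known targets of NF-kappaB. Each sequence is the 110 bases that end just before the transcription start in RefSeq on GRCh38.p14, read 5′ to 3′ on the strand of the gene. Capitals mark GGAATTTCC, a motif of the kind that NF-kappaB binds, which was searched on both strands.
CXCL1, chr4:73869283-73869392, plus strand: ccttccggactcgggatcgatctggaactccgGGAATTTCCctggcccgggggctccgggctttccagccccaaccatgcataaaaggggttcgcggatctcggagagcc
CXCL2, chr4:74099196-74099305, minus strand: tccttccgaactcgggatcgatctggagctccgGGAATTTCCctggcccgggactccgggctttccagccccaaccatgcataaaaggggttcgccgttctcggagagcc
CXCL3, chr4:74038690-74038799, minus strand: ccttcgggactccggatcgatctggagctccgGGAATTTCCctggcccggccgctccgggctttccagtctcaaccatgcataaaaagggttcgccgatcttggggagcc
CXCL5, chr4:73998678-73998787, minus strand: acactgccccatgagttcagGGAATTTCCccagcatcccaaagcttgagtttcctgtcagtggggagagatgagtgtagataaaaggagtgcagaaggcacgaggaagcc
CXCL6, chr4:73836568-73836677, plus strand: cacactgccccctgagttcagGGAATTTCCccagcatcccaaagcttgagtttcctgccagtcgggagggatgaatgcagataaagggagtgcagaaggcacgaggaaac
CXCL8, chr4:73740459-73740568, plus strand: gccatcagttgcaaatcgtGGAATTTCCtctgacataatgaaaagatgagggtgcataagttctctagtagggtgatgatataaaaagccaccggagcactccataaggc

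All 6 windows held the motif once, and it began 77 to 91 bases before the start. The flanking letters of CXCL1, CXCL2 and CXCL3 resembled each other, and so did those of CXCL5 and CXCL6. Over 35116 promoters of 300 bases, 162 (0.461%) held the motif, and 9 of the 110 genes described here that had a promoter in the table did. The other 3 were CXCL10, CXCL11 and IL18RAP. Because the 6 ELR genes were shown as known targets of NF-kappaB, these counts do not test for enrichment of the motif. A match is a description of the letters and does not show that a factor was bound.

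Detection was described first. Over all probes the background rule was passed by 52.1% after #1 siHOTAIR and 55.3% after siGFP transfection. Among probes matched to a gene name, as all those described here are, the shares were 62.4% and 65.0%. Of the 174 chemokine and interleukin probes, 60 (34.5%) and 63 (36.2%) were well above background. Both arrays measured 55 probes, 5 passed only after #1 siHOTAIR and 8 only after siGFP transfection, and 106 passed on neither. By gene, 58 of 139 passed on at least 1 array and 81 on neither.

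Detection differed by role. All 6 ELR chemokines were measured on both arrays, against 2 of the 8 other CXC ligands and 7 of 25 CC ligands on at least 1 array. Of the receptors, 7 of 16 for chemokines and 20 of 39 for interleukins passed on at least 1 array, as did 13 of 39 interleukins. Of the antagonists and binding proteins, IL1RN, the secreted antagonist of the IL-1 receptor, was above background on both arrays and IL18BP, which binds IL-18, on the siGFP array only. The receptors CXCR1 and CXCR2, through which the ELR chemokines act, were not well above background on either array, nor were CXCL9, CXCL10 and CXCL11, the ligands induced by interferon.

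**Figure D1:**
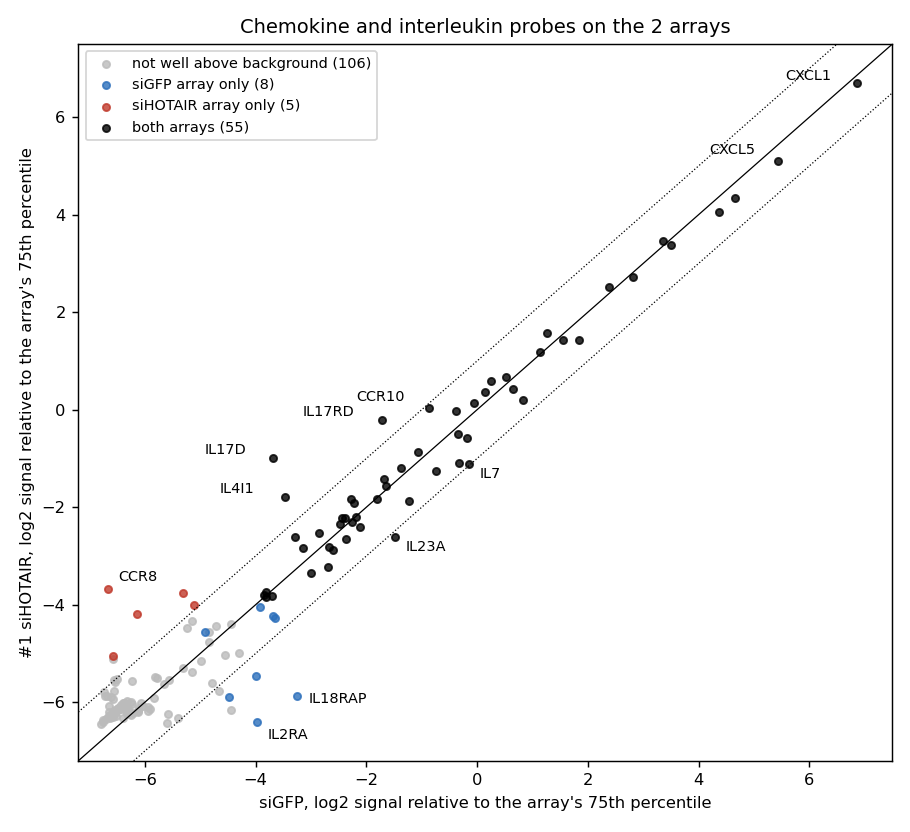
Each point is 1 of the 174 probes, with its log2 signal relative to the array's 75th percentile in siGFP-transfected cells on the x axis and in #1 siHOTAIR-transfected cells on the y axis. The solid line marks equal values and the dotted lines 2-fold differences. The 55 probes measured on both arrays (black) lie close to the solid line, with IL17D, IL4I1 and IL17RD above and IL23A below the dotted lines.

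Of the 68 compared probes, those above background on at least 1 array, 8 were higher by at least 2-fold after #1 siHOTAIR, where the background over 24117 compared probes was 3.3%, and 5 were lower, where it was 4.1%. These are 11.8% and 7.35% of the compared probes. Of the 13, 9 were well above background on 1 array only. Among the 55 probes measured on both arrays, 3 were higher (IL17D, IL17RD and IL4I1), where the background over 21428 probes was 1.5%, and 1 was lower (IL23A), where it was 1.54%. The signals of these genes were low as a group, with a median scaled level of -2.06 over the compared probes against -1.09 over all compared probes. The median log2 ratio of the 55 probes was -0.002, with 27 above and 28 below 0, and that of all probes measured on both arrays was 0.03. Of the 55, 78.2% lay within 0.5 of 0, against 83.0% of all such probes.

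**Figure D2:**
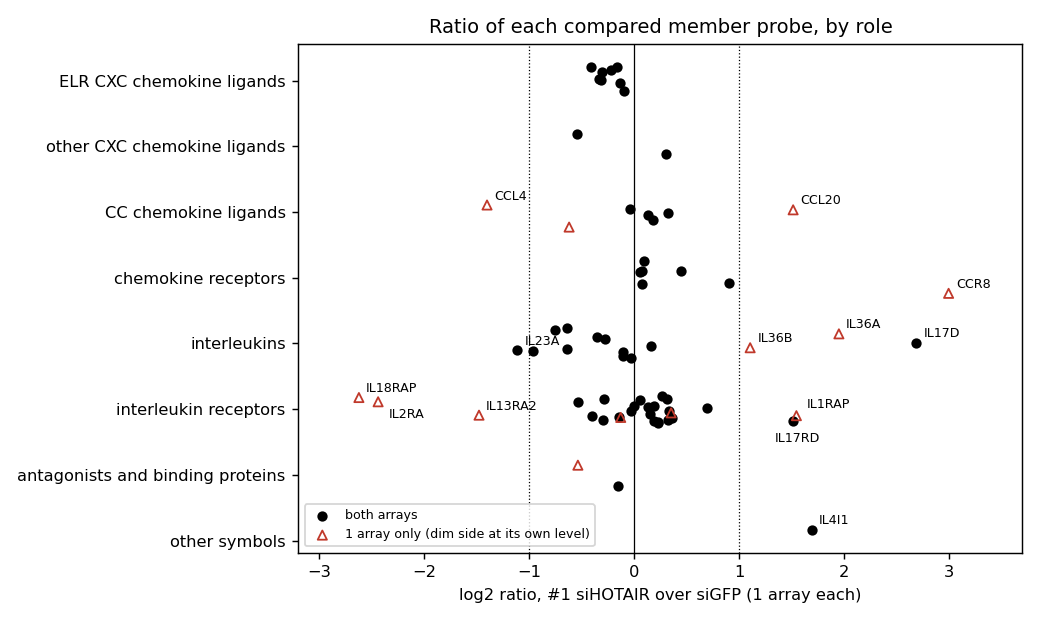
Each point is 1 of the 68 compared probes, placed by its log2 ratio of #1 siHOTAIR over siGFP on the x axis and by role on the y axis. Filled circles were measured on both arrays and open triangles on 1 array only, and the dotted lines mark 2-fold. All 8 ELR probes lie below 0 and within 0.5 of it, and 9 of the 13 named probes past a dotted line are triangles.

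All probes of the ELR chemokines were well above background and gave a slightly lower signal after #1 siHOTAIR, apart from a CXCL2 probe that turned with the spike-in scaling. CXCL1, known as growth-related oncogene alpha, had 2 probes. The spots of one were 68011 and 66691 after #1 siHOTAIR and 77136 and 69512 after siGFP transfection, a log2 ratio of -0.17 (SD 0.05). Those of the other were 13307 and 13236 against 15566 and 16200, a ratio of -0.30 (SD 0.05). For both probes, each spot on the #1 siHOTAIR array was dimmer than each on the siGFP array. Here and below, lack of overlap describes the spots only, because its share over all probes was not counted.

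CXCL5, which attracts neutrophils, had signals of 22517 and 22084 after #1 siHOTAIR and 26954 and 27481 after siGFP transfection, a ratio of -0.33 (SD 0.05). CXCL6, its closest relative, had 11107 and 10600 against 13435 and 12696, a ratio of -0.31 (SD 0.05). CXCL3 had 1666 and 1857 against 2229 and 2304, a ratio of -0.41 (SD 0.06). The spots of these 3 genes did not overlap between the arrays. CXCL8, which encodes interleukin-8, had 820 and 920 against 888 and 1088, so its spots overlapped, with a ratio of -0.22 (SD 0.07). CXCL2 had 4190 and 4411 against 4311 and 4576 with the first probe, which overlapped as deposited but not after scaling, a ratio of -0.09 (SD 0.06), and 6724 against 7171 with the single spot of the second, a ratio of -0.14 (SD 0.07).

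Over the 8 probes the median ratio was -0.26, and the signals were 6.24% to 24.8% lower after scaling. None reached 2-fold. Of all probes measured on both arrays 45.8% lay below 0. Of the 8 ratios, 6 were larger than 2 SD of the repeated spots. The direction of the smallest ratio depended on the scaling: with the arrays set to the spike-in RNA the first CXCL2 probe reached 0.04, and the second -0.001. The other 7 ELR probes stayed below 0 under every setting run.

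PPBP and PF4 are platelet chemokines of the same CXC cluster on chromosome 4, PPBP carrying the ELR motif, and they lie between CXCL1 and CXCL5. Their symbols fall outside the rule. PPBP had 10 spots, at 572 to 716 with a median of 628 after #1 siHOTAIR and 1307 to 1436 with a median of 1397 after siGFP transfection. The spots did not overlap, all 10 were lower, and the ratio was -1.17 (SD 0.03), 2.25-fold lower. PF4 had 958 and 925 against 1485 and 1163, a ratio of -0.53 (SD 0.06), also without overlap. Its own spots on the siGFP array had an SD of 0.25 on the log2 scale. The promoter of PPBP held no match to the motif, and no promoter of PF4 was among those searched.

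**Figure D3:**
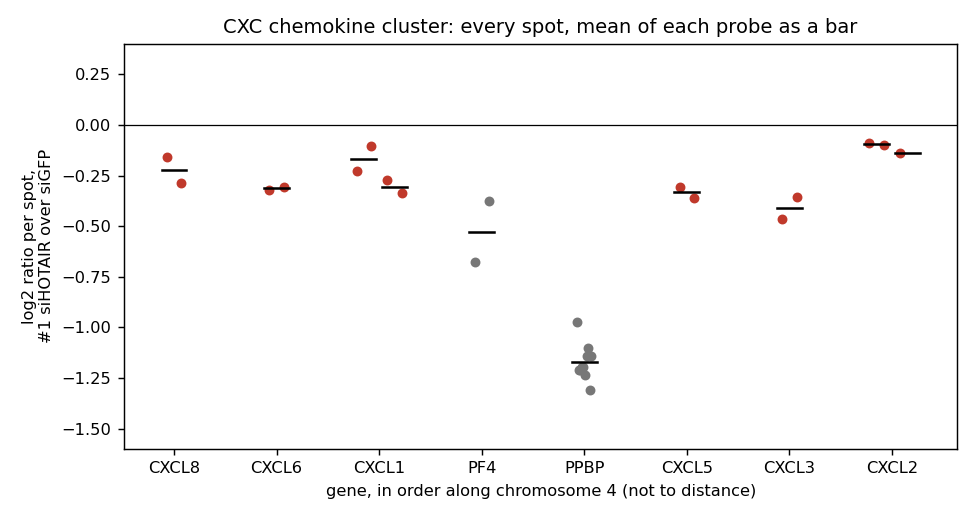
Each point is the log2 ratio of 1 spot, #1 siHOTAIR over siGFP, for the CXC chemokine genes in their order along chromosome 4 (x axis, not to distance), with the mean of each probe as a bar. Red points are the 6 ELR genes of the rule and grey points PF4 and PPBP. Every spot lies below 0, from the CXCL2 probes near it to PPBP at -1.17.

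Of the other CXC ligands, CXCL16, a transmembrane chemokine that also acts as a scavenger receptor, had 65.0 and 73.5 after #1 siHOTAIR and 92.4 and 104 after siGFP transfection, a ratio of -0.55 (SD 0.20) without overlap of the spots. CXCL12, the ligand of CXCR4, was above background with 1 of its probes, at 91.2 against 71.6, a ratio of 0.30 (SD 0.20). Its probe with 10 spots had medians of 32.0 and 28.1 and was not well above background on either array. The ratio of CXCL12 was under 2 of the SDs given.

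Among the CC ligands, CCL24, an eosinophil attractant known as eotaxin-2, had 3513 and 3885 after #1 siHOTAIR and 3149 and 3407 after siGFP transfection, a ratio of 0.13 (SD 0.06). CCL16 had a single spot at 973 against 751 with 1 probe, a ratio of 0.33 (SD 0.10), and was not above background with its other probe. CCL26, or eotaxin-3, had a ratio of 0.18 (SD 0.10) and CCL15 of -0.04 (SD 0.20). None of these 4 genes reached 2-fold. CCL27, a chemokine of skin, passed on the siGFP array only, at 50.2 against 33.7, and was at least 1.39-fold lower after #1 siHOTAIR, a bound set by the lowest signal well above background on the dim array, 37.3 for #1 siHOTAIR and 28.6 for siGFP.

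CCL20 and CCL4 were past 2-fold by their averaged signals but rested on 1 spot each. CCL20, the ligand of CCR6, had spots of 44.6 and 8.56 after #1 siHOTAIR and 6.74 and 6.50 after siGFP transfection. CCL4, or MIP-1 beta, had 10.3 and 11.7 after #1 siHOTAIR and 23.9 and 33.1 after siGFP transfection, and its second probe was not above background. Only the spots at 44.6 and 33.1 were well above background, and the averaged level of the brighter array, 19.5 for CCL20 and 28.1 for CCL4, lay below the bound of the other, so no fold is given.

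The chemokine receptors measured on both arrays had ratios above 0 for all 6 probes under each scaling, with a median of 0.09. The median over all probes measured on both arrays was 0.03, with 45.8% below 0. CXCR4, the receptor of CXCL12 and a gene much studied in metastasis, had 10 spots at 1389 to 1594 with a median of 1479 after #1 siHOTAIR and 9 used spots at 1303 to 1466 with a median of 1382 after siGFP transfection, a ratio of 0.06 (SD 0.03). CCR7, which guides cells to lymph nodes, had 7038 and 7220 against 6266 and 6652, a ratio of 0.10 (SD 0.05). The spots of CXCR4 overlapped between the arrays and those of CCR7 did not. CCR6 had a ratio of 0.08 (SD 0.10) and CXCR3 of 0.45 (SD 0.23) with its single-spot probe. The CXCR3 probe with 10 spots had medians of 8.67 and 7.65 and was not well above background on either array.

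CCR10, the receptor of CCL27 and CCL28, had the largest ratio of these 6 probes. Its spots were 632 and 696 after #1 siHOTAIR and 337 and 352 after siGFP transfection, a ratio of 0.90 (SD 0.09), 1.87-fold higher. It passed 2-fold only with the spike-in scaling, at 1.04.

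CCR8, a receptor of CCL1 found on regulatory T cells, had spots of 94.6 and 27.6 after #1 siHOTAIR and 6.16 and 6.24 after siGFP transfection. Only the spot at 94.6 was well above background. Against the bound, the receptor was at least 1.73-fold higher after #1 siHOTAIR. Its spots on the #1 siHOTAIR array lay far apart.

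Among the interleukins measured on both arrays, 10 of 12 probes lay below 0, with a median of -0.32, and 7 of 12 did with the spike-in scaling (median -0.18). Before the spike-in scaling, 45.8% of all probes measured on both arrays lay below 0. IL23A, the subunit particular to interleukin-23, had 114 and 101 after #1 siHOTAIR and 221 and 228 after siGFP transfection, a ratio of -1.11 (SD 0.15), 2.16-fold lower. It was under 2-fold with the spike-in scaling, at -0.98, and with normexp background correction, at -0.75. IL7, a growth factor of lymphocytes, had 299 and 302 against 560 and 575, a ratio of -0.96 (SD 0.09), 1.95-fold lower. In both genes the spots were close together on each array and did not overlap between them.

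IL32, a proinflammatory cytokine, had 2 probes. The first had 308 and 304 after #1 siHOTAIR and 474 and 526 after siGFP transfection, a ratio of -0.75 (SD 0.09), and the second had 171 and 187 against 275 and 263, a ratio of -0.64 (SD 0.10). The spots of both probes were lower without overlap. IL21, a cytokine of T helper cells, had 702 and 785 against 1151 and 1089, a ratio of -0.64 (SD 0.07), also without overlap. IL11, which signals through gp130, had a ratio of -0.11 (SD 0.06), which turned to 0.03 with the spike-in scaling, and IL16 had 1042 against 901 with the single spot of the probe above background, a ratio of 0.16 (SD 0.09).

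IL6, the gp130 cytokine that activates STAT3, had 10 spots at 48.2 to 83.9 with a median of 63.5 after #1 siHOTAIR and 65.9 to 94.3 with a median of 77.4 after siGFP transfection. The spots overlapped, and the ratio was -0.36 (SD 0.09). IL1B, the inflammatory cytokine interleukin-1 beta, had 10 spots at 7.58 to 13.7 with a median of 8.90 after #1 siHOTAIR and 18.4 to 40.6 with a median of 30.4 after siGFP transfection. These did not overlap, but 0 and 3 of 10 spots were well above background, so IL1B was not among the compared probes and no fold is given. By the software's less strict flag, signal positive and significant, 2 and 10 of its 10 spots were called. IL1A, which encodes interleukin-1 alpha, had medians of 9.44 and 7.12 and 0 of 10 spots well above background on each array.

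**Figure D4:**
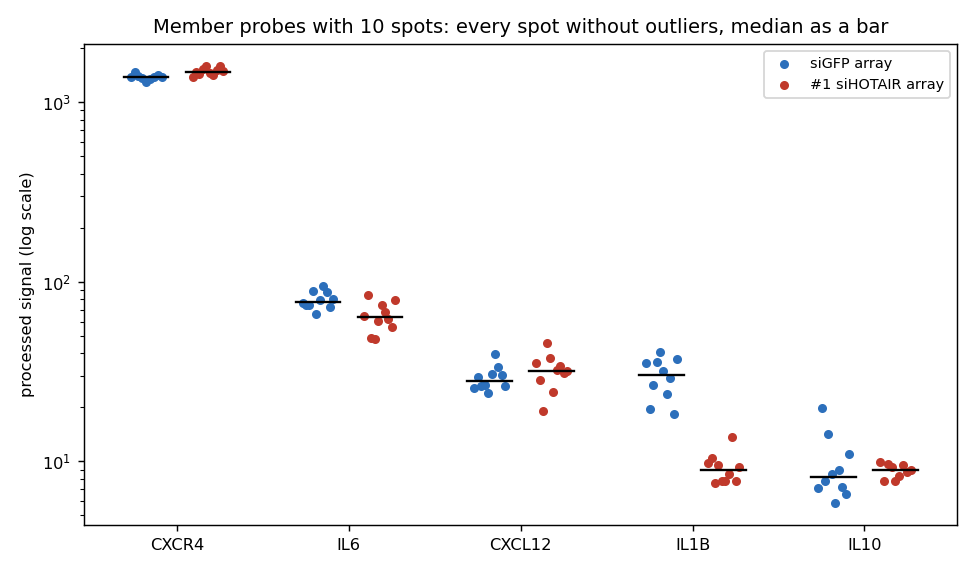
Processed signals (y axis, log scale) of every spot not marked as an outlier for 5 genes with 10-spot probes, in siGFP-transfected (blue) and #1 siHOTAIR-transfected cells (red), with medians as bars. The IL1B spots separate between the arrays at low signal, the IL6 spots overlap around 77.4 and 63.5, and those of CXCR4, CXCL12 and IL10 overlap.

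IL17D, a member of the interleukin-17 family, was measured on both arrays and past 2-fold. It had a single spot, with a signal of 328 after #1 siHOTAIR and 49.2 after siGFP transfection, a ratio of 2.69 (SD 0.23), 6.45-fold higher. With normexp background correction the ratio was 1.54. With 1 spot it has no repeat on the array. IL17A, IL17B, IL17C and IL17F, its relatives, were not well above background on either array.

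IL36A and IL36B, agonists of the IL-1 family that act on epithelia, passed the background rule after #1 siHOTAIR only. IL36A had spots of 156 and 8.12 against 12.1 and 6.55, and its averaged level was at least 1.20-fold higher by its bound. This rests on the spot at 156, since the one at 8.12 was not well above background. IL36B had a single spot of 40.5 against 18.2, at least 1.37-fold higher by its bound. The 2 spots of IL36A differed strongly on the #1 siHOTAIR array. IL36G, the third agonist, was not above background.

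Of the 21 interleukin receptor probes measured on both arrays, 14 lay above 0, with a median of 0.19, and 13 to 16 did under the other scalings and background corrections. Over all probes measured on both arrays the median was 0.03, and 45.8% lay below 0. IL17RD, a receptor of the interleukin-17 family that also restrains FGF signalling, had 552 and 578 after #1 siHOTAIR and 186 and 198 after siGFP transfection, a ratio of 1.51 (SD 0.09), 2.85-fold higher. The spots were close together on each array and far apart between them. IL17RA, the shared subunit of this family, had ratios of 0.36 (SD 0.08) and 0.23 (SD 0.11) with its probes, IL17RC of 0.26 (SD 0.10), IL17RE of -0.002 (SD 0.28) and IL17REL of 0.70 (SD 0.28). Apart from IL17RD none of these reached 2-fold, and IL17RB was not above background.

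The receptors of type 2 cytokines were measured with moderate signals. IL13RA1, a subunit for interleukin-13 and interleukin-4, had 1906 and 1975 after #1 siHOTAIR and 1507 and 1509 after siGFP transfection, a ratio of 0.32 (SD 0.06), and 0.15 (SD 0.28) with its second probe. IL4R had 753 and 676 against 640 and 577, a ratio of 0.19 (SD 0.08), without overlap of the spots. IL13RA2, known as a decoy receptor, had 9.92 and 21.7 against 44.4 and 35.3, was well above background with the spot at 44.4 only, and was at least 1.1-fold lower.

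Of the receptors lower in #1 siHOTAIR-transfected cells, IL10RB, the shared subunit of the interleukin-10 family, had 440 and 424 against 549 and 556, a ratio of -0.40 (SD 0.08). IL20RB had a single spot at 270 against 379, a ratio of -0.53 (SD 0.12). IL6ST, which encodes gp130, had 4 probes on both arrays with ratios from -0.28 to 0.32, so its probes differed in direction. IL6R, the receptor it pairs with, was above background with 1 of 2 spots in siGFP-transfected cells, and no fold is given.

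IL1RAP, the accessory chain of IL-1 receptors, had 47.5 and 48.7 after #1 siHOTAIR and 18.1 and 14.1 after siGFP transfection with 1 probe and was at least 1.63-fold higher. IL18RAP, the accessory chain for interleukin-18, had a single spot of 11.1 against 66.4 and was at least 1.84-fold lower. IL2RA, the alpha chain of the interleukin-2 receptor, had a single spot of 7.64 against 40.2 and was at least 1.11-fold lower. The second probes of these 3 genes were not above background on either array. Of the binding proteins, IL18BP had 35.5 and 34.0 against 50.7 and 47.1 and was at least 1.35-fold lower, and IL1RN had 91.8 against 99.1, a ratio of -0.16 (SD 0.20). IL4I1, an oxidase named for its induction by interleukin-4, had a single spot of 189 against 56.6, a ratio of 1.69 (SD 0.23), 3.23-fold higher.

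**Figure D5:**
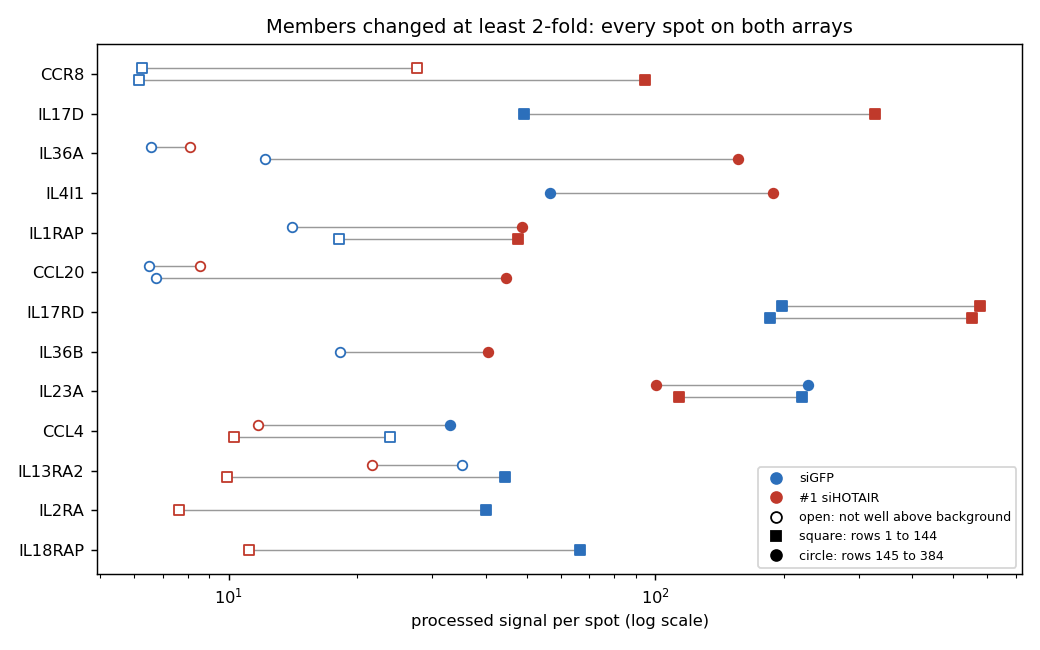
Processed signal (x axis, log scale) of every spot of the 13 probes past 2-fold by their averaged signals, 1 gene per row, in siGFP-transfected (blue) and #1 siHOTAIR-transfected cells (red). Open symbols were not well above background and squares lie in the first 37.5% of the array's rows. Only IL17D, IL4I1, IL17RD and IL23A have filled symbols on both arrays.

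The place of a spot on the array moved with the share of changed spots. In the first 37.5% of the array's rows, 4.36% of compared spots were higher by at least 2-fold and 4.70% lower, and in the remaining rows 2.12% and 3.53%. For 4-fold, 2.03% were higher in the first rows and 0.35% in the others. All spots of IL17D, CCR8, IL17RD, IL18RAP and IL2RA lie in the first rows, and IL4I1, CCL20, IL36A and IL36B have none there. The part of this in their ratios was not tested. IL23A had a spot in each region, at 114 against 221 and at 101 against 228.

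Signalling genes downstream of these receptors were described from lists. Of 24 JAK, STAT, SOCS and related genes, 20 were above background, and the median ratio was 0.17. None of their 22 compared probes passed 2-fold. Over all compared probes 3.3% were higher and 4.1% lower, so with so few probes a count of none is near that share. SOCS2 had 16690 against 15287, a ratio of 0.08 (SD 0.05), and STAT6, activated by interleukin-4 and interleukin-13, 3979 against 5686, a ratio of -0.56 (SD 0.05). Of 25 genes of the IL-1 and Toll-like receptor adaptors and NF-kappaB, 22 were above background, with a median of 0.07. None of their 27 compared probes passed 2-fold, which is also near the share over all compared probes. NFKB1 and NFKBIA, an NF-kappaB subunit and its inhibitor, each with 10 spots, had a ratio of -0.05 (SD 0.04 and 0.03), and RELA 0.11 (SD 0.04) with its 10-spot probe.

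Of 13 other genes of the chemokine system, 7 were above background, with 9 compared probes, and PPBP was the one past 2-fold. The share over all compared probes was 3.3% higher and 4.1% lower. MIF, a cytokine that binds CXCR2 and CXCR4, had a ratio of -0.01 (SD 0.02) over 10 spots, and ACKR3, the atypical receptor of CXCL12, -0.24 (SD 0.10). Of 24 related cytokines and receptors, 14 were above background, with a median of 0.30. Of their 17 compared probes, the 1 past 2-fold by its averaged signal was a CSF1 probe, at 9.37 against 23.3. It passed on the siGFP array only. The 23.3 lay below the lowest signal well above background on the #1 siHOTAIR array, 37.3, so no fold is given. The other CSF1 probes had ratios of -0.21 and 0.02.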

How the data were processed

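The data are 2 Agilent arrays of 1 colour, 1 per condition. The authors labelled RNA with Cy3 and extracted spots with Agilent Feature Extraction 10.10.1.1, per the submitters' processing notes. The processed signal they deposited is an intensity, background-subtracted by the software and not normalized between the arrays, and very low signals are replaced by a surrogate. The deposited value table holds the background-subtracted intensity of the same spots (largest difference 0). The methods name GeneSpring GX 12, whose P-value step could not be repeated with 1 array per condition.

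Signals were divided by the array's 75th percentile, taken over the non-control spots, before log2 (650.3 for #1 siHOTAIR and 629.9 for siGFP). Outlier spots (393 and 375) were left out on the array concerned, none was saturated, and a probe's spots were averaged on the log2 scale. Probes entered the comparison where 50% or more of their spots passed the software's well-above-background flag on either array. Where only 1 array was, the dim level was replaced by the lowest flagged spot signal there, unless it was higher, and the fold is a bound. It applies to the averaged level and not to each spot. Signals that were not flagged can exceed the lowest flagged one, as chemokine and interleukin probes above background on neither array reached 31.8 on the siGFP array. Counts use dim signals at their own level. The chemokine and interleukin probes above background on neither array had median signals of 9.34 and 7.32. Over all probes of the array above background on neither, the median log2 ratio was 0.34. Measurement SDs came from 657 and 680 probes with 10 spots, at 6 signal levels, divided by the root of the number of spots. The number of arrays limits the precision. Python 3.11.15 and pandas 2.3.3 were used, with limma 3.58.1 in R 4.3.3 for normexp. Quantile normalization, applied also after normexp, was done in Python. The steps were tested on simulated data.

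Probes were named by matching RefSeq accessions to a table of GRCh38.p14 (58.5% of probes). Named genes were IL17D, CCR8, CCL4, every gene past 2-fold, the 10 with the highest signals, the most changed of each role and others by value, and of other genes those of the lists and HOTAIR. PPBP and PF4 were described by spot after their values were seen, as was IL1B. The members, role groups, lists (other chemokine system, JAK-STAT and SOCS, IL-1 and Toll-like receptor adaptors and NF-kappaB, related cytokines, and cell type markers) and the motif were chosen with earlier results of these data known. Alternatives were quantile normalization, the median of probes on both arrays, spike-in scaling, no scaling, normexp with offset 50, the value table with a floor of 10, every spot on both arrays, no filter, the positive and significant flag, 1.5-fold and 3-fold thresholds, dim signals at their bound, outliers kept, and the later rows of the array only (without the first 37.5%). For normexp the median of the pixels was used in place of the mean. Probes well above background on both arrays only were added after seeing the data. A few genes of the rule and of the lists are counted but not reported by name here.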

Additional observations from a re-analysis of the deposited data

How the results depend on the processing

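The 68 compared probes became 125 with the positive and significant flag. Against 8 higher probes, the count was 4 with normexp (IL17D, IL17RD, IL4I1 and CCR8), 3 with every spot above background on both arrays, 4 at 3-fold, 3 with dim signals at their bound, 5 in the later rows of the array and 3 with both arrays required, an alternative chosen after seeing the data. Against 5 lower probes the counts were 0, 1, 2, 1, 2 and 1, and 10 at 1.5-fold. The share over all probes was counted only for the reported rule and for both arrays required. Under the other settings the counts therefore cannot be set against such a share. The median log2 ratio of probes on both arrays, -0.002, was 0.14 with spike-in scaling and 0.28 without a filter on dim probes. CCL20 turned to -0.60 and CCL4 to 0.36 with dim signals at their bound, since the bound lies above the averaged level of the other array. Over 35 single probes, 222 of 280 alternative values differed from the reported value by less than the measurement SD, 54 moved beyond it in the same direction and 4 changed direction: CCL20 and CCL4 at their bound, and a CXCL2 probe (0.04) and IL11 (0.03) with spike-in scaling. The 222 do not measure stability, because several settings could hardly move a ratio. Scaling to the median of probes on both arrays and no scaling add the same small constant to every ratio (-0.03 and 0.05). Keeping outliers can change only probes with an outlier spot, and using the later rows only those with a spot in the first rows. Over the chemokine and interleukin probes, dim ones included, the median change in ratio was 0.14 with spike-in scaling. It was -0.10 with quantile normalization and -0.16 with normexp. Apart from CCL20 and CCL4 as described, the cause of these differences was not tested. Signals near background limit 9 of the 13 probes past 2-fold, and no replicate array bounds the spread between cultures. No paired analysis was possible because each condition had 1 array.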
